A study of Mus musculus with 4 samples.

Results

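Marcks and Marcksl1 were followed cell by cell in coronal brain slices through both striata, as 2 of the 383 genes that were measured in each cell. The rule that named the pair selected them because their levels were lower at 18 months than at 2 months of age in several cell classes of these same sections. Values by age are therefore given as a description without a test, and tests were run on the level by cell class and by position in the tissue. Wild-type C57BL/6NTac mice of 2 months (Young, n = 2 sections) and 18 months (Aged, n = 2 sections) were compared, and neither group carried a transgene or received a treatment. The study's methods call its replicates biological and its supplement counts mice, so each of the 4 sections was taken as 1 mouse. The sex of the animal behind a section is not given in the sources used here. Section names stored within the Young tables do not match the numbering of the titles, which was followed here. No cell identifier was shared between sections. Transcripts were counted by MERFISH, an imaging method in which each RNA species is read in place as a barcode of fluorescent spots over successive rounds of hybridisation.

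Marcks encodes the myristoylated alanine-rich C-kinase substrate, and Marcksl1 encodes its smaller relative, the MARCKS-like protein. Both proteins sit at the inner face of the plasma membrane through a lipid anchor and a basic stretch called the effector domain, which also binds calmodulin and actin. Phosphorylation of this domain by protein kinase C, or binding of calmodulin to it, releases the protein from the membrane, and the family is known for roles in process outgrowth, cell migration and the growth of axons in the developing brain.

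In the GRCm38 build with the GENCODE vM21 annotation, Marcks lies on the minus strand at chr10:37133375-37138920 and Marcksl1 on the plus strand at chr4:129513581-129515985. Both genes have 2 exons. The transcript of Marcks is 4048 bases long with 927 coding bases, and that of Marcksl1 is 1605 bases long with 600 coding bases. The coding stretch of 75 bases in which they are most alike is printed because it encodes the effector domain that defines the family and shows how far the members differ where they are closest. It lies in exon 2 of both genes, at coding bases 436 to 510 of Marcks (chr10:37136528-37136602, minus strand) and at coding bases 259 to 333 of Marcksl1 (chr4:129514888-129514962, plus strand), and capitals mark the bases that differ.
Marcks: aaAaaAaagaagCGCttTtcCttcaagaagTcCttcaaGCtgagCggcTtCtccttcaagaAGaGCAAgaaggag
Marcksl1: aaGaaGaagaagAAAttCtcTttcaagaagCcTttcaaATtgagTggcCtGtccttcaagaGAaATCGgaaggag
Of the 75 bases, 55 were the same (73.3%) and 20 differed. The longest run of bases shared by the whole transcripts was 17. The RefSeq gene table lists 5 pseudogenes of Marcksl1 and 0 of Marcks. The probe sequences of the panel were not analysed here, so which part of each transcript was read is unknown.

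The files held 320663 segmented cells, of which 281824 passed the filters on detected genes and volume. The sections held between 18816375 transcripts (Aged 1) and 36116711 transcripts (Young 1), and a kept cell held a median of 400 transcripts in Young 1, 325 in Young 2, 215 in Aged 1 and 293 in Aged 2. Both Aged sections were thus shallower than both Young sections, which is why levels are given as transcripts of a gene per 10000 transcripts of all panel genes, with the number per 1000 µm³ of cell volume beside them where it matters. Marcks was read 353710, 369234, 147587 and 250853 times in Young 1, Young 2, Aged 1 and Aged 2, and Marcksl1 18862, 13104, 5093 and 10297 times. Over all kept cells this came to a Marcks level of 97.9, 118, 78.4 and 86.2 per 10000, and a Marcksl1 level of 5.21, 4.17, 2.70 and 3.54 per 10000.

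Cells were grouped by clustering without the pair and were named after marker genes, with the suffix -like understood throughout because no cell annotation by the authors was used. Cells with at least 3 markers of their own group of classes and of another group were left out as mixed, which left 140273 cells in 13 classes. Medium spiny neurons, interneurons, other neurons and neuroblasts counted as a single group, as did microglia with macrophages and endothelial with mural cells. RNA of another class of the same group was thus not screened out. Clusters 21 and 28 kept their numbers and, having no named class, lost no cells to this rule. Cluster 21 was led by Acta2, Myl9 and Mgp, genes of smooth muscle and the vessel wall, and cluster 28 by Rassf9, Dsg2, Nnat and Vim. The macrophage class was cluster 15 alone. Its leading genes held the macrophage markers Cd74, Mrc1 and Lyz2, but also Aldh1a2, in first place, and Mgp, which were on the marker list of fibroblasts. Whether this class joins macrophages and fibroblasts was not tested.

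Marcks was highest in oligodendrocyte precursors, at 538, 596, 381 and 490 per 10000 in Young 1, Young 2, Aged 1 and Aged 2 (501 ± 91.2, SD, n = 4). Microglia, the resident immune cells of the brain, followed at 352, 421, 293 and 376 (361 ± 53.0). Neuroblasts held 341, 393, 261 and 304 (325 ± 56.3). This class was named from markers such as Dcx, Sox11 and Sox4, and it joined cluster 30 (814 cells before the mixed ones were left out) with cluster 29 (1034 cells), whose leading genes also included Top2a, Egfr and Ect2, genes of dividing progenitors. These 3 classes stood apart from the other 10 in each section. Neurons other than striatal projection neurons and interneurons came next at 116 ± 23.1, then mural cells at 89.2 ± 17.2, cluster 28 at 85.0 ± 27.0, medium spiny neurons at 81.7 ± 11.2, interneurons at 72.1 ± 12.04 and macrophages at 66.0 ± 16.6. The lowest means were those of cluster 21 (50.1 ± 8.65), astrocytes (43.7 ± 8.59), oligodendrocytes (29.7 ± 11.4) and endothelial cells (25.8 ± 2.90). The highest class mean was 19.4 times the lowest. Precursors of oligodendrocytes and the oligodendrocytes they give rise to were thus near opposite ends of the order. Per cell volume, oligodendrocyte precursors also led with 15.5 Marcks transcripts per 1000 µm³, followed by neuroblasts (10.7) and microglia (10.2), and endothelial cells were again last with 0.949.

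These levels rest on the cells that were not mixed, except in clusters 21 and 28, where no cells were left out and which thus stand unfiltered among filtered classes. Of the oligodendrocyte precursors 79.3 to 87.8% in a section were left out as mixed, which kept 316 of 2581, 469 of 2707, 428 of 2072 and 339 of 2286 cells in Young 1, Young 2, Aged 1 and Aged 2. Of the microglia 58.6 to 72.1% were left out, and of the neuroblasts 27.3 to 36.4%. With mixed cells kept, Marcks was 309, 362, 273 and 283 per 10000 in oligodendrocyte precursors (307 ± 39.9). Microglia then held 218 ± 23.9, below neuroblasts at 278 ± 79.1, and the same 3 classes still had the highest means. At the other end, endothelial cells went to 53.7 ± 8.86 and oligodendrocytes to 58.02 ± 15.1, both above cluster 21 at 50.1. The order within the lowest classes, and the size of the span, thus depended on this choice of cells.

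Marcksl1 had another order. Neuroblasts held the most, at 63.4, 47.9, 25.2 and 36.9 per 10000 in Young 1, Young 2, Aged 1 and Aged 2 (43.3 ± 16.3, SD, n = 4). Oligodendrocyte precursors held 24.9, 21.8, 13.7 and 17.7 (19.5 ± 4.87), and cluster 28 held 16.8, 12.97, 8.48 and 9.75 (11.99 ± 3.70). Neuroblasts lay above every other class in each of the 4 sections. With mixed cells kept they held 38.8 ± 11.7, and oligodendrocyte precursors (11.9 ± 1.40) no longer lay above cluster 28. Oligodendrocytes came next at 8.27 ± 3.01, ahead of interneurons at 5.38 ± 1.85. Neurons (3.24 ± 1.19), microglia (3.05 ± 0.361), astrocytes (3.04 ± 1.22), macrophages (2.68 ± 0.456) and medium spiny neurons (2.41 ± 0.539) formed a group with overlapping values. Cluster 21 (1.58 ± 0.266), mural cells (1.51 ± 0.586) and endothelial cells (1.14 ± 0.284) were lowest. A set of 10 panel genes of cytokines, chemokines and proteases, chosen after the data were seen as a gauge of stray reads, had medians between 0 and 1.14 per 10000 over the classes and sections. In cluster 21, mural and endothelial cells the Marcksl1 level was therefore close to that of the rarest genes of the panel.

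**Figure D1:**
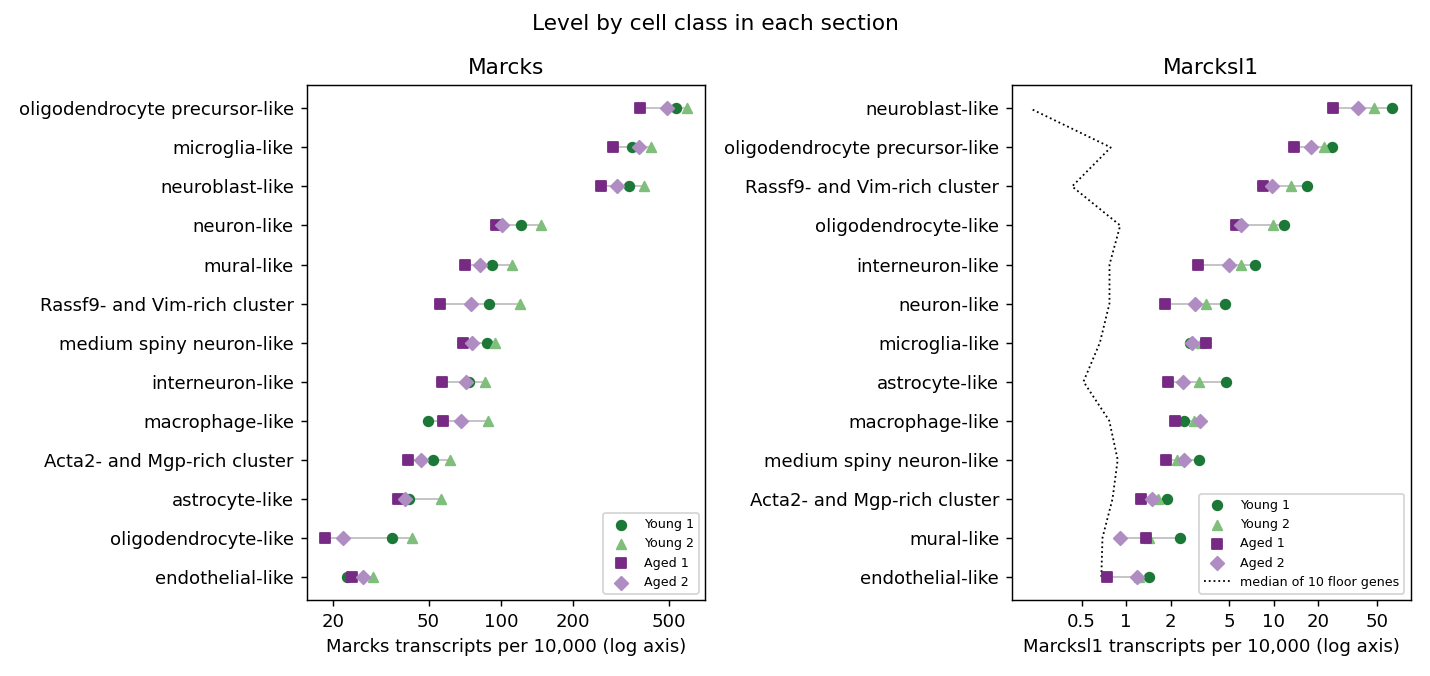
Level of Marcks (left) and Marcksl1 (right) in transcripts per 10000 on a log axis, by cell class, with 1 point per section and each panel ordered by its own 4-section mean. Oligodendrocyte precursors, microglia and neuroblasts lead for Marcks with means of 501, 361 and 325, whereas neuroblasts lead for Marcksl1 with a mean of 43.3 and microglia lie in the middle at 3.05. The dotted line is the mean over sections of the median of 10 floor genes.

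The balance between the members differed between classes. For each Marcksl1 transcript, microglia held between 84.1 and 134 Marcks transcripts over the sections. Oligodendrocytes held between 3 and 4.37, cluster 28 between 5.34 and 9.23, neuroblasts between 5.38 and 10.4, and oligodendrocyte precursors between 21.6 and 27.7. The range of microglia did not overlap that of any of these 4 classes, but it overlapped that of mural cells, 39.7 to 89.8. The ratio depends on how well each probe set reads its transcript, so only its differences between classes can be read.

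Neighbours in each order were compared with edgeR's quasi-likelihood test on counts summed per class and section, with the section as a block, over the 12 classes that reached 200 cells in each of the 4 sections. Most panel genes differ between cell classes, and 73.7% of all tests of a gene between neighbours had an adjusted p under the threshold of 0.05. For Marcks, 7 of 11 neighbouring pairs were called in the order of the means, 1 pair was called against it and 3 were not called. The pair called against it was cluster 28 over medium spiny neurons, at -0.69 ± 0.13 on the log2 scale with the usual TMM scaling (adjusted p 3.72e-06) and at 0.02 with totals alone. Because TMM assumes that most genes keep their level between columns, each pair was also fitted with plain totals and with cell volume, and 3 Marcks pairs were called under all 3 scalings. Microglia exceeded neurons by 1.14 ± 0.12 (adjusted p 2.81e-11, edgeR), neurons exceeded mural cells by 0.59 ± 0.12 (adjusted p 4.37e-05, edgeR), and astrocytes exceeded oligodendrocytes by 0.29 ± 0.12 (adjusted p 0.0345, edgeR). DESeq2 did not call neurons over mural cells (0.21). The difference of astrocytes and oligodendrocytes turned to -0.34 when mixed cells were kept and was not called without Young 1, without Aged 1 or without Aged 2, so this pair was not ordered. Oligodendrocyte precursors and microglia did not pass the test with TMM (0.23 ± 0.12, adjusted p 0.106, edgeR), and were called higher in precursors by 0.47 with totals and by 0.60 with volume.

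For Marcksl1, 5 of 11 neighbouring pairs were called in order, 1 (macrophages over medium spiny neurons) against it and 5 were not. Under all 3 scalings interneurons exceeded neurons by 0.79 ± 0.15 (adjusted p 1.24e-05, edgeR) and medium spiny neurons exceeded cluster 21 by 1.56 ± 0.18 (adjusted p 8.20e-11, edgeR). Neurons over microglia, microglia over astrocytes and astrocytes over macrophages were each not called under at least 1 scaling, so the middle of the Marcksl1 order is not resolved. Neuroblasts numbered 437 and 538 cells in the Young and 124 and 157 in the Aged sections, too few for that fit. With the minimum lowered to 100 cells after their number was seen, neuroblasts exceeded oligodendrocyte precursors in Marcksl1 by 1.07 ± 0.18 on the log2 scale (adjusted p 1.14e-06, edgeR). In the same fit neuroblasts lay below microglia in Marcks, with microglia higher by 0.77 ± 0.13 (adjusted p 6.20e-07, edgeR), and above neurons by 1.05 ± 0.13 (adjusted p 5.07e-10, edgeR). This added fit was run with TMM scaling alone. Per cell volume the Marcks mean of neuroblasts was above that of microglia, and so it was with mixed cells kept (278 against 218 per 10000). The order of neuroblasts and microglia in Marcks is therefore not resolved.

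Within the striatum, Marcks was higher ventrally in medium spiny neurons, the projection neurons that make up most striatal neurons. Their level was 116, 124, 96.1 and 104 per 10000 in the ventral part of Young 1, Young 2, Aged 1 and Aged 2, against 61.8, 66.6, 44.5 and 59.8 in the dorsal part of the same sections. The ventral and dorsal values did not overlap, and the ventral level was 1.74 to 2.16 times the dorsal level within a section. The fitted difference was 0.83 ± 0.07 on the log2 scale (adjusted p 2.04e-08, edgeR with the section as a block), in a comparison in which 33.7% of panel genes were called. Each striatum of each section gave the same direction, with ratios between 1.60 and 2.27 in 8 of 8 hemispheres. When the extent of each striatum was cut into 6 equal segments from dorsal to ventral, Marcks in medium spiny neurons of Young 2 went from 60.0 in segment 1 to 140 in segment 5 and 118 in segment 6. Segment 5 was the highest in all 4 sections, with 134, 140, 111 and 123, and segment 1 was the lowest in all 4, with 52.1, 60.0, 35.1 and 49.9.

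**Figure D2:**
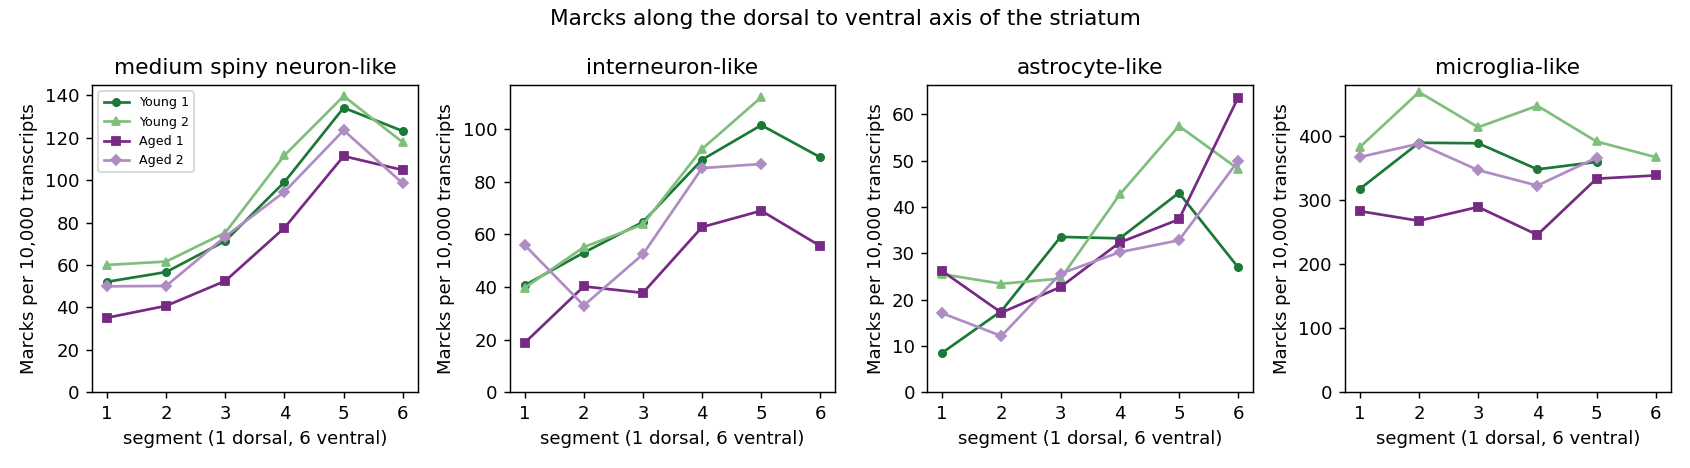
Marcks in transcripts per 10000 along 6 equal segments of the striatum from dorsal (1) to ventral (6), by cell class, with 1 line per section. Medium spiny neurons peak in segment 5 of every section at 111 to 140, and the ventral part of microglia was at 0.932 to 1.08 times the dorsal part.

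Interneurons and astrocytes showed the same direction. The interneuron class was named from Sst, Npy, Gad2 and Slc32a1 over the whole section, and local neurons were not told apart in it from other GABAergic neurons. In Young 1, 219 of its 1952 cells lay in the ventral and 83 in the dorsal striatum. In its striatal cells Marcks was 95.4, 98.7, 64.1 and 81.5 ventrally against 54.3, 55.1, 34.2 and 44.5 dorsally (log2 0.82 ± 0.11, adjusted p 6.89e-06, edgeR), where 22.6% of genes were called. In striatal astrocytes it was 35.2, 49.1, 42.1 and 33.8 against 20.3, 24.4, 22.0 and 18.7 (log2 0.86 ± 0.14, adjusted p 3.00e-04, edgeR), where 17.0% of genes were called. The ventral part was higher in every section and in 8 of 8 hemispheres for both classes, with ratios of 1.20 to 2.16 in interneurons and 1.40 to 2.30 in astrocytes. At the study's cluster resolution of 0.08 the astrocyte difference was 0.64 (adjusted p 0.0625, edgeR). With mixed cells kept, the astrocyte values were 70.2, 80.3, 62.3 and 65.2 ventrally and 37.1, 49.3, 27.3 and 42.4 dorsally. Each of these lay above the value without mixed cells, and the part that RNA of other classes had in the astrocyte levels was not tested. Interneurons were not screened for RNA of medium spiny neurons, which belong to the same group in the rule on mixed cells. The part of such RNA in the interneuron levels was not tested.

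The other 4 classes did not pass the test. Microglia were at 359, 414, 300 and 345 ventrally and at 371, 423, 278 and 370 dorsally (log2 -0.10 ± 0.05, adjusted p 0.301, edgeR, with 3.91% of genes called), and the ventral part was higher in 4 of 8 hemispheres. With mixed cells kept the microglia value became 0.26 and was called. Endothelial cells had a log2 difference of 0.55 ± 0.16 (adjusted p 0.0843, edgeR, 2.78% of genes called) and oligodendrocytes of 0.33 ± 0.14 (adjusted p 0.260, edgeR, 3.10% of genes called). Cluster 21 was at -0.03 ± 0.18 (adjusted p 0.981, edgeR, 1.40% of genes called). The differences between classes in this slope were not tested.

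Marcksl1 also lay higher ventrally in the neurons of the striatum. In medium spiny neurons it was 3.79, 2.31, 1.98 and 2.33 per 10000 ventrally and 1.70, 1.03, 1.27 and 1.77 dorsally in Young 1, Young 2, Aged 1 and Aged 2 (log2 0.74 ± 0.13, adjusted p 1.86e-04, edgeR), and 8 of 8 hemispheres were higher ventrally. In interneurons it was 13.3, 6.69, 4.48 and 8.25 against 6.24, 5.24, 1.60 and 3.79 (log2 0.91 ± 0.23, adjusted p 0.00467, edgeR), and DESeq2 did not call this difference. Within each section both neuron classes were higher ventrally. Oligodendrocytes, the only other class in which Marcksl1 passed the filter on low counts, showed 0.10 on the log2 scale (adjusted p 0.892, edgeR). Striatal astrocytes were at 3.11, 2.67, 2.69 and 3.24 ventrally and at 1.25, 0.988, 0.758 and 1.39 dorsally, too few transcripts for the filter, and were not tested.

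A map of Marcks in medium spiny neurons showed that the highest squares lay towards the midline as well as ventrally. A comparison of the medial with the lateral part of each striatum was added after this map was seen. Medium spiny neurons held 122, 128, 100 and 108 per 10000 medially against 65.9, 62.3, 53.0 and 48.9 laterally (log2 0.93 ± 0.06, adjusted p 2.43e-08, edgeR), where 46.0% of genes were called. Interneurons held 92.6, 93.7, 60.0 and 82.2 against 62.9, 55.1, 42.6 and 35.5 (log2 0.73 ± 0.13, adjusted p 0.00569, edgeR), where 15.8% of genes were called. In both classes the medial value was the higher one in each section.

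**Figure D3:**
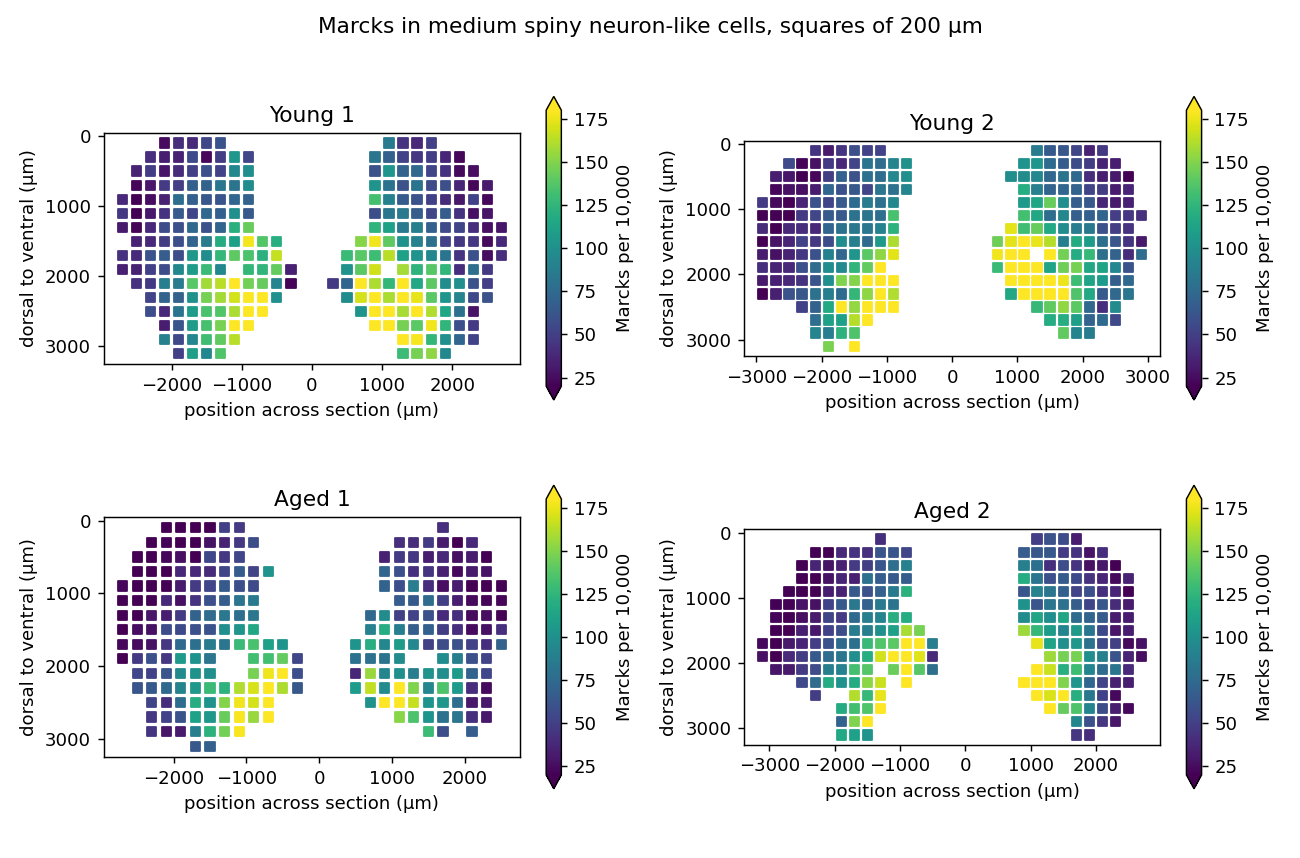
Marcks in transcripts per 10000 of medium spiny neurons in squares of 200 µm, 1 panel per section, with position across the section and from dorsal to ventral in µm. The squares with the highest levels lie ventrally and towards the midline in both striata of each section. The ventromedial quadrant has the highest mean (149) and the dorsolateral quadrant the lowest (40.9). Single squares depart from this, as some ventral squares nearest the midline are low, with 21.6 in Young 1, 37.0 in Aged 1 and 39.3 in Aged 2.

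Astrocytes did not pass this comparison (log2 0.31 ± 0.15, adjusted p 0.152, edgeR, 17.9% of genes called), and neither did endothelial cells (0.62 ± 0.17, adjusted p 0.131, edgeR, 0.408% of genes called). Microglia were at 0.15 ± 0.08 (adjusted p 0.313, edgeR, 7.87% of genes called) and oligodendrocytes at 0.20 ± 0.21 (adjusted p 0.759, edgeR, 0.00% of genes called). Astrocytes reached 0.88 and were called when mixed cells were kept. Marcksl1 in medium spiny neurons was 4.12, 2.22, 2.09 and 2.39 medially against 1.77, 1.11, 1.35 and 1.62 laterally (log2 0.80 ± 0.11, adjusted p 4.12e-05, edgeR). Its difference in interneurons, 0.73 ± 0.20 (adjusted p 0.0319, edgeR), was lost without Young 1 and without Young 2.

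Both axes together gave a span of more than 3 between quadrants in medium spiny neurons. Marcks was 46.4, 46.7, 32.8 and 37.7 per 10000 in the dorsolateral quadrant of Young 1, Young 2, Aged 1 and Aged 2 (40.9 ± 6.83, SD, n = 4) and 147, 173, 126 and 150 in the ventromedial quadrant (149 ± 19.0). The dorsomedial (79.6 ± 11.8) and ventrolateral (75.2 ± 10.5) quadrants lay between them and overlapped each other. The ventromedial level was 3.18 to 3.99 times the dorsolateral level in medium spiny neurons, 2.08 to 3.07 times in interneurons, 1.87 to 2.90 times in astrocytes and 1.05 to 1.12 times in microglia. For Marcksl1 in medium spiny neurons the same ratio was 3.62 and 3.84 in the Young and 2.05 and 1.91 in the Aged sections. Its dorsolateral level was 1.57, 0.878, 1.32 and 1.65 per 10000 in Young 1, Young 2, Aged 1 and Aged 2, against floor gene medians of 1.05, 0.887, 0.754 and 0.823 in this class, so that of Young 2 was at the floor. The quadrants were a description and were not tested apart from the axes.

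Medium spiny neurons fall into a type with the dopamine receptor Drd1 and a type with Drd2, which give rise to the direct and indirect pathways of the basal ganglia. In a comparison added after the data were seen, cells with more Drd2 than Drd1 transcripts held less Marcks, at 79.9, 80.6, 59.9 and 66.7 per 10000, than cells with more Drd1 than Drd2, at 90.1, 101, 73.7 and 79.1 (log2 -0.17 ± 0.03, adjusted p 1.22e-08, edgeR). Marcksl1 was lower in the Drd2 cells by a larger log2 difference, -0.44 ± 0.08 (adjusted p 7.83e-08, edgeR), with a ratio of 0.645 to 0.728 within sections. Without cells that held neuroblast markers this Marcksl1 difference was -0.25 (adjusted p 0.0665, edgeR). Within the striatum it was clear only in the ventromedial quadrant, where the Marcksl1 mean was 4.13 per 10000 in Drd1 cells and 2.74 in Drd2 cells. The means were 1.38 and 1.33 dorsolaterally, 1.51 and 1.46 dorsomedially, and 1.48 and 1.66 ventrolaterally. The type difference was not tested by quadrant. Of all panel genes, 62.4% were called between these types. The Drd2 cells were the lower ones in each section for both genes. The ventromedial level of Marcks was 3.01 to 3.80 times the dorsolateral level in Drd1 cells and 3.41 to 4.18 times in Drd2 cells, so the gradient was present in each type.

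Among oligodendrocyte precursors, Gpr17 marks cells that are about to mature and Pdgfra the dividing precursor. Cells with more Gpr17 held 601, 634, 384 and 435 Marcks transcripts per 10000 in Young 1, Young 2, Aged 1 and Aged 2, and cells with more Pdgfra held 491, 569, 420 and 526. The difference was 0.19 ± 0.15 on the log2 scale (adjusted p 0.405, edgeR) with 14.8% of genes called. For Marcksl1 it was 0.04 ± 0.28 (adjusted p 0.916, edgeR). This comparison, too, was added after the data were seen. Neither member was shown to differ between these precursor stages, whereas Marcks in mature oligodendrocytes was far lower than in both.

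Oligodendrocytes, the myelin-forming cells, were compared between white matter and other tissue. White matter was taken as squares around which oligodendrocytes made up 50% or more of the kept cells in a radius of 100 µm. Marcksl1 in oligodendrocytes was 13.8, 10.6, 6.68 and 6.84 per 10000 in white matter of Young 1, Young 2, Aged 1 and Aged 2, and 10.4, 9.25, 4.46 and 5.24 in other tissue (log2 0.76 ± 0.13, adjusted p 0.00134, edgeR). White matter was the higher one in each section, in a comparison in which 51.6% of genes were called, but per cell volume the difference was 0.26 and was not called. Marcks in the same cells was 31.8, 42.8, 11.8 and 16.3 in white matter and 37.6, 42.9, 24.5 and 27.5 in other tissue (log2 -0.13 ± 0.14, adjusted p 0.473, edgeR). With plain totals (-0.50) and with volume (-0.64) it was called lower in white matter, so the call rests on the scaling. The lowest of these Marcks values were those of white matter in both Aged sections.

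Astrocytes of white matter held 41.3, 42.01, 20.3 and 19.8 Marcks transcripts per 10000 against 41.6, 56.8, 38.3 and 41.1 in other tissue (log2 -0.41 ± 0.17, adjusted p 0.0581, edgeR, 41.8% of genes called). Their Marcksl1 difference was 0.33 ± 0.33 (adjusted p 0.471, edgeR). Marcks in white matter astrocytes was therefore just outside the threshold, and it was called with plain totals and with volume.

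Near the neuroblasts, astrocytes held more of both members. In the adult mouse, neuroblasts are known to arise from astrocyte-like stem cells in the wall of the lateral ventricle. The neuroblast-rich zone was taken as squares around which neuroblasts made up 10% or more of the kept cells in the same radius. Astrocytes of the zone held 94.8, 93.3, 58.7 and 67.9 Marcks transcripts per 10000 in Young 1, Young 2, Aged 1 and Aged 2, against 37.3, 54.1, 37.0 and 39.3 elsewhere (log2 0.76 ± 0.20, adjusted p 6.78e-04, edgeR, 37.0% of genes called). Their Marcksl1 was 16.6, 8.14, 4.51 and 6.31 against 3.77, 2.81, 1.89 and 2.36 (log2 1.64 ± 0.28, adjusted p 6.78e-08, edgeR). The zone values did not overlap those elsewhere for either gene. For Marcksl1, however, the zone values rest on 50, 22, 2 and 4 transcripts in 281, 273, 70 and 91 astrocytes of Young 1, Young 2, Aged 1 and Aged 2. The separation in the Aged sections thus hangs on very few transcripts.

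These differences moved with neuroblast markers. When cells of other classes in which at least 2 of 5 neuroblast markers were detected were left out, the Marcks difference in astrocytes was 0.18 and the Marcksl1 difference 0.84, and neither was called. The Marcks difference was 0.52 and not called without Young 1. Medium spiny neurons of the zone were higher in Marcks by 0.39 ± 0.10 (adjusted p 0.0392, edgeR, 10.2% of genes called), which was lost without the cells that held neuroblast markers, with limma, and without Young 1, Young 2 or Aged 2. Their Marcksl1 difference was 0.31 ± 0.24 (adjusted p 0.458, edgeR). The zone held 2548 and 2646 kept cells in the Young and 638 and 829 in the Aged sections.

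**Figure D4:**
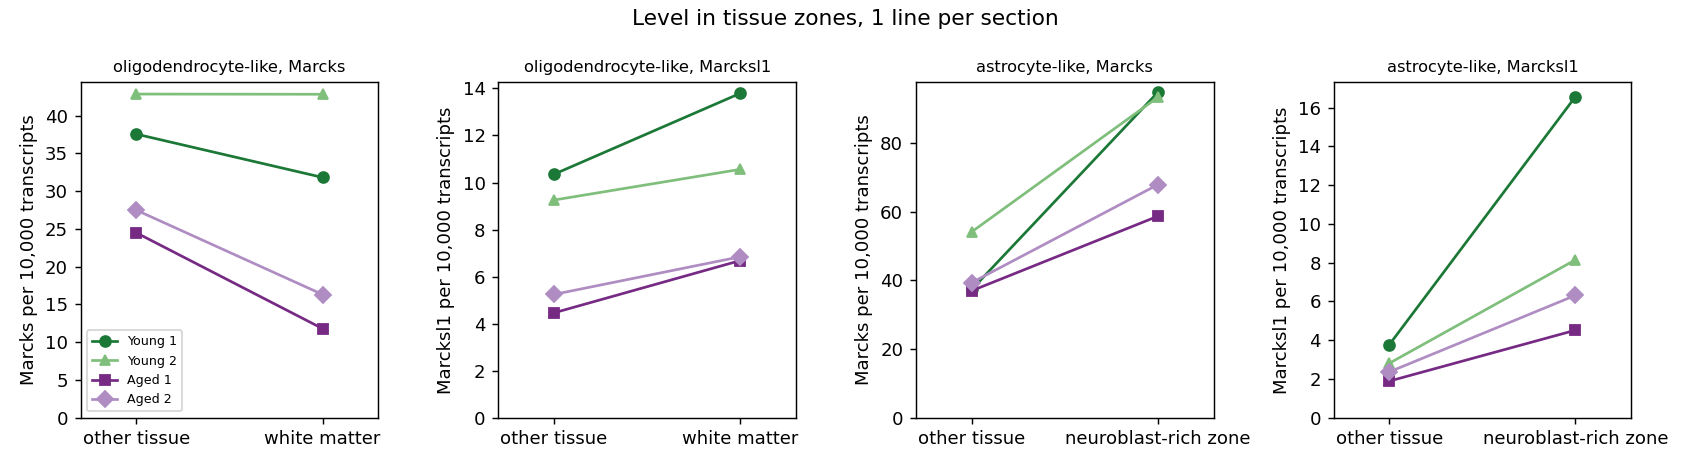
Level of Marcks and Marcksl1 in transcripts per 10000 in other tissue and in a zone, with 1 line per section. Lines of astrocytes rise towards the neuroblast-rich zone for both genes, to 58.7 to 94.8 for Marcks, and oligodendrocyte lines rise towards white matter for Marcksl1 and fall or stay level for Marcks.

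The genes whose pattern over 20 clusters was most like that of each member were found by Pearson's r of log2 levels, as a description over clusters that share sections and panel. For Marcks these were Ect2 (r = 0.759), which acts in the division of the cell body, the transcription factor Sox4 (0.719), Foxo3 (0.664), the matrix protein gene Tnr of the oligodendrocyte lineage (0.642) and Dpysl3 (0.640), which acts in axon growth. For Marcksl1 these were Hmgb3 (0.899), the topoisomerase gene Top2a of dividing cells (0.809), Sox4 (0.787), Slain1 (0.773), which acts on microtubule growth, and the histone gene H2afz (0.733). Sox4 was on both lists. The members had an r of 0.526 with each other.

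Other panel genes of the cytoskeleton and of neurite growth were read beside the pair, as a list of 20 genes chosen by function that holds growth and calmodulin-binding genes such as Gap43, Stmn2, Map1b and Dpysl3 and actin or membrane skeleton genes such as Actn1, Cald1, Ezr and Ank3. In medium spiny neurons 3 of 20 were higher ventrally and 4 lower, where 33.7% of all genes were called, with a list median of -0.04 on the log2 scale against -0.03 for all genes. Gap43, which like Marcks encodes a protein kinase C substrate that binds calmodulin at the membrane, was higher ventrally by 0.34 ± 0.06 (adjusted p 3.78e-04, edgeR) and medially by 0.61 ± 0.05 (adjusted p 1.73e-07, edgeR). Dpysl3 was higher ventrally by 0.45 ± 0.09 (adjusted p 6.26e-04, edgeR) and medially by 0.64 ± 0.08 (adjusted p 1.28e-05, edgeR), and Slain1 was higher on both axes too. Pcp4l1, which encodes a calmodulin regulator, and Ank3, of the membrane skeleton, were lower on both axes. Along the medial axis 6 of 20 were higher and 5 lower in these neurons, where 46.0% of all genes were called. The largest of these differences, that of Dpysl3 along the medial axis, was smaller than the 0.93 of Marcks on that axis.

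In astrocytes Ank3, Map1b and Sorbs2 were higher and Tpm4 lower in the ventral striatum, and in interneurons Gap43 was higher and Luzp1, Pcp4l1 and Tubb3 lower. In oligodendrocytes of white matter 6 of the 20 were higher and 9 lower, where 51.6% of all genes were called, with a list median of -0.36 against 0.07 for all genes. In astrocytes of the neuroblast-rich zone 4 were higher and 7 lower, where 37.0% of all genes were called, with a median of -0.25 against -0.10.

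Between ages the pair was lower in the Aged sections by the rule that selected it, and the values that follow describe that choice. With mixed cells left out, oligodendrocytes showed the largest difference in Marcks, from 35.2 and 42.9 per 10000 in the Young to 18.5 and 22.0 in the Aged sections, so the Aged mean was 51.9% of the Young mean (fitted log2 -1.05 ± 0.21, SE). Marcksl1 in the same cells went from 11.7 and 9.80 to 5.51 and 6.02 (53.5%, log2 -0.99 ± 0.25). No Aged value of oligodendrocytes reached a Young value for either gene. The higher Aged value lay below the lower Young value in 10 of 13 classes for Marcks and in 10 of 13 for Marcksl1. Over all genes and classes, 18.3% of combinations were ordered this way, and nothing is read from the comparison because the rule used this contrast. Per cell volume the count was 12 of 13 for both, in sections whose depth differed in the same direction. The share over all genes was not taken on the volume scale, so nothing is read from this count either.

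The classes outside this pattern differed between the members. For Marcks they were endothelial cells, macrophages and microglia, and for Marcksl1 macrophages, medium spiny neurons and microglia. Microglia held 352 and 421 Marcks transcripts per 10000 in the Young and 293 and 376 in the Aged sections, and 2.70 and 3.21 Marcksl1 transcripts against 3.49 and 2.81. The fitted value of Marcks was below 0 in 13 of 13 classes, from -0.09 in macrophages and endothelial cells to the -1.05 of oligodendrocytes, and that of Marcksl1 in 12 of 13, with macrophages at 0.05 ± 0.35. Without Young 2 the Marcks value was below 0 in 11 of 13 classes, with macrophages at 0.42 and endothelial cells at 0.11. In 2 classes the sign of the Marcksl1 fit, which uses TMM scaling, went against the means per 10000. Microglia were fitted at -0.15 ± 0.33 with an Aged mean of 3.15 and a Young mean of 2.96, and the Aged mean of macrophages was 99.3% of the Young mean.

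In the classes with the highest levels, Marcks was 567 ± 41.5 in Young and 435 ± 76.9 in Aged oligodendrocyte precursors (SD, n = 2 each; 76.8%). Marcksl1 in neuroblasts was 55.6 ± 11.02 in Young and 31.0 ± 8.32 in Aged sections (55.8%, log2 -0.87 ± 0.28). Neurons held 134 ± 18.5 and 98.6 ± 4.03 Marcks transcripts, and medium spiny neurons 90.8 ± 5.04 and 72.6 ± 4.27. In all 4 cases the Aged values lay below the Young values. In astrocytes the Aged mean was 78.6% of the Young mean for Marcks and 55.4% for Marcksl1.

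**Figure D5:**
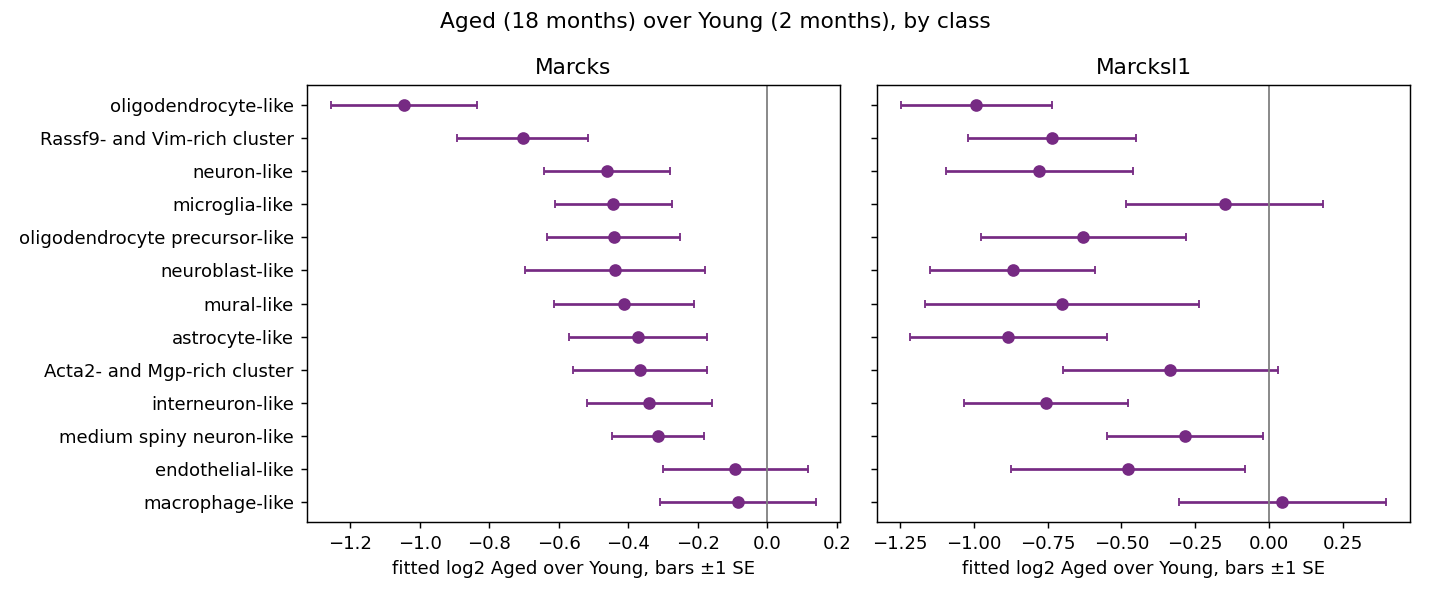
Fitted log2 ratio of Aged (18 months) over Young (2 months) by cell class for Marcks and Marcksl1, with bars of 1 standard error, from 2 sections per group. Values run from -1.05 to -0.09 for Marcks and from -0.99 to 0.05 for Marcksl1, with oligodendrocytes lowest for both, and they describe the contrast that selected the genes.

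Of the 20 cytoskeleton and growth genes, 0 passed the age test in 12 of 13 classes (0 of 236 tests with edgeR, DESeq2 or limma), where 23 tests with edgeR, 16 with DESeq2 and 19 with limma had an unadjusted p under 0.05. In cluster 28, the class with the fewest cells among those that reached 200, Cald1 was higher and Dpysl3, Stmn2 and Tubb3 lower in the Aged sections (edgeR, adjusted p under 0.05). The count of 4 calls in all became 9 with plain totals and 0 without cells that held neuroblast markers. Over all classes and genes other than the pair, 1.69% of tests were called. In cluster 28 itself the share was larger, as 11 of the 275 genes tested there, counting the pair, were called higher and 14 lower. The list's median log2 value was between -0.25 in oligodendrocyte precursors and 0.17 in microglia.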

How the data were processed

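MERFISH was run by the authors on 10 µm coronal slices with a panel of 383 genes, and barcodes were decoded with MERLIN. The deposited count tables hold whole transcripts per gene and cell, unnormalised and unfiltered. With them the authors gave each cell's volume and position, imaging signals in µm³ and µm. A further table of the authors' mean counts per cell was used only to check that columns were read correctly.

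Cells with under 10 detected genes or under 50 µm³ were removed, following the methods of the study. Levels were scaled to 10000 transcripts, and 15 principal components with 20 neighbours were clustered with the Louvain method (igraph) at a resolution of 1.0, without the pair and the 20 listed genes (22 in all). The cluster that held neuroblast markers was split once more at 0.3. Clusters were named from fixed markers. The study's own resolution was 0.08 and was run as an alternative. Striatum was taken as squares of 50 µm with at least 40% medium spiny neurons within 150 µm, in the 2 largest areas per section. The files give no orientation, so the ventral direction was taken as perpendicular to the line between both striata and away from the largest white matter area.

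Counts were summed per class, zone and section and tested with edgeR 4.0.16 (TMM, filterByExpr, quasi-likelihood test) in R 4.3.3, with Benjamini-Hochberg adjustment over all genes of a comparison and a threshold of 0.05. Classes needed 200 cells per section and zones 50. Alternatives were DESeq2 1.42.0, limma 3.58.1 (prior count 0.5), other scalings, filters, cell selections and each section left out, and the procedure was tested on simulated data. Named genes are the pair, the list by counts, and the 5 genes most like each member. One gene of the list is not reported here by name. The members, lists and comparisons were chosen with earlier results of these data known. p-values of class, zone and type comparisons measure how far these differences varied over the 4 sections, with the level of each section removed by the block. Those of the age test of the listed genes measure the spread between sections of the same group. Intervals cover no difference in probe efficiency.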

Additional observations from a re-analysis of the deposited data

Results flagged for a closer look

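In 7 of 46 comparisons of a member between tissue areas or cell types, both Young sections moved one way and both Aged sections the other way. Over all panel genes in the 24 underlying comparisons, 8.30% of 8082 combinations were ordered this way. These differences were not tested, and several rest on few transcripts. For Marcksl1 in microglia the ventral level over the dorsal level was 1.57 and 4.62 in the Young and 0.805 and 0.782 in the Aged sections, a difference of means of 2.30. These levels rest on 2 to 7 transcripts per area, and the hemispheres of the Aged sections disagreed. In Aged 1 the ventral level was 2.94 against 0 dorsally in one hemisphere and 0.259 times the dorsal level in the other, and in Aged 2 the ratios were 1.89 and 0.439. In the same cells the medial over the lateral level was 1.98 and 2.18 against 0.982 and 0.935, a difference of 1.12, again from 2 to 6 transcripts per area. Marcksl1 in medium spiny neurons of the neuroblast-rich zone over other tissue was 1.45 and 1.55 against 0.228 and 0.712, a difference of 1.03. The level in the zone of Aged 1 was 0.425 per 10000, from 1 transcript in 102 cells, under the floor median of 0.754 in this class. Marcks in oligodendrocytes of that zone was 1.58 and 1.24 against 0.949 and 0.741, a difference of 0.567, from 62 and 32 zone cells in Aged 1 and Aged 2. With mixed cells kept the ratios were 1.18 and 0.757 against 0.493 and 1.21, so this order was lost. Marcks in precursors with more Gpr17 over those with more Pdgfra was 1.22 and 1.11 against 0.914 and 0.827, a difference of 0.298. In endothelial cells of white matter over other tissue, Marcks was 1.79 and 1.83 against 0.555 and 0.565, a difference of 1.25, and Marcksl1 was 1.86 and 2.17 against 0 and 0.608, a difference of 1.71, from as few as 47 white matter cells in a section and at most 2 Marcksl1 transcripts there. With mixed cells kept the Marcks ratios were 0.757 and 0.618 against 0.455 and 0.493, all below 1. The order was also lost with mixed cells kept in microglia on both axes (1.46 and 1.56 against 0.644 and 1.298 ventrally, 1.92 and 1.85 against 1.09 and 1.52 medially) and between the precursor stages (1.31 and 1.36 against 1.05 and 0.998).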

How the results depend on the processing

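Among the values of single classes, 646 counted as the same under an alternative. For tested values this means the same direction and side of the threshold. For the untested age values of the pair it means a move of less than 1 standard error. A further 20 lost the threshold, 21 gained it, 50 untested ones moved by more and 21 tested ones changed sign. The gradient of Marcks in medium spiny neurons and interneurons kept its call on both axes under every alternative in which the class had enough cells, which interneurons did not without cells that held neuroblast markers, at resolution 0.08 and in the outer parts of the axes. Keeping mixed cells raised the number of classes called from 3 to 6 (Marcks) and 2 to 4 (Marcksl1) for the ventral axis, from 2 to 5 and 2 to 5 for the medial axis, from 0 to 2 and 1 to 3 for white matter, and from 1 to 2 for Marcksl1 in the neuroblast-rich zone. Without cells that held neuroblast markers, the counts were 1 for Marcksl1 on the ventral axis, 1 and 1 on the medial axis, 1 for Marcks in white matter, 0 and 0 in the neuroblast-rich zone and 0 of the listed genes for age. At resolution 0.08, which leaves fewer classes, 2 Marcks and 3 Marcksl1 neighbouring pairs were called in order, 1 class for Marcks in white matter and 1 listed gene for age, and the fitted age value was below 0 in 7 of 7 classes for both members. DESeq2 called 1 class for Marcksl1 on the ventral and 1 on the medial axis. limma called 1 class for Marcksl1 on the medial axis and 1 for Marcks in the neuroblast-rich zone. The outer parts of each axis in place of its whole extent gave 1 and 1 class for Marcksl1. In white matter Marcks was called in 1 class without the filter on low counts, in 2 with volume and in 2 with plain totals, and Marcksl1 in 0 with volume. Plain totals gave 9 age calls in the list.

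Leaving out each section in turn gave 3 to 4 Marcksl1 pairs in order, the lowest without Young 1, 1 to 2 classes for Marcksl1 on the medial axis, 0 to 1 for Marcks in white matter (1 without Young 1), 0 to 2 for Marcks in the neuroblast-rich zone (0 without Young 1, 1 without Young 2 and 1 without Aged 2), and 1 to 3 age calls in the list (1 without Young 1, 1 without Young 2 and 2 without Aged 1). Tested log2 values that changed sign were, for Marcks, astrocytes over oligodendrocytes (-0.34 with mixed cells, -0.0053 with DESeq2, -0.12 with classes of 100 cells), ventral microglia (0.26 with mixed cells, 0.039 at resolution 0.08, 0.087 with volume), ventral cluster 21 (-0.22 to 0.12 with a section left out, 0.12 without Young 2 and 0.033 without Aged 2), medial oligodendrocytes (-0.043 without Aged 1 to 0.47 without Young 1) and white matter oligodendrocytes (0.063 without cells with neuroblast markers, and -0.31 without Young 2 to 0.0045 without Aged 1). For Marcksl1 they were ventral oligodendrocytes (-0.0014 without cells with neuroblast markers), medial oligodendrocytes (-0.069 without Young 1 to 0.49 without Young 2), white matter astrocytes (-0.27 at resolution 0.08, and -0.0037 without Young 1 to 0.47 without Young 2), medium spiny neurons of the neuroblast-rich zone (-0.38 with limma) and the precursor stage (-0.026 with limma, -0.022 with volume, -0.15 with plain totals, -0.013 without Young 1, and -0.032 without Young 2 to 0.29 without Aged 2). Of these only the microglia value with mixed cells and the astrocyte value with mixed cells passed the threshold, and the cause was not tested.

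With the replicate number of the titles as a replicate block, the fitted age value was below 0 in 13 classes for Marcks and 12 for Marcksl1, and 3 listed genes were called. The deviations of Young 1 and Aged 1 from their group means had a correlation of -0.068. With 2 sections per group, Young 2 and Aged 2 give the same value by construction. The labels do not tie the numbers to a shared batch. A neuroblast share of 20% left no class with 50 cells in every section and gave no value. Depth limits Marcksl1 most: in vessel cells and in dorsolateral medium spiny neurons of Young 2 its level was near that of the floor genes, and Aged 1 was the shallowest section.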

Other observations

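Levels also differed between clusters of 1 class. Among astrocytes, cluster 12, led by Hopx and Gja1, held 83.1, 103, 65.9 and 78.4 Marcks transcripts per 10000 in Young 1, Young 2, Aged 1 and Aged 2. Cluster 18, led by the Thbs4, Gfap and C4b genes of reactive or fibrous astrocytes, held 75.4, 83.9, 35.1 and 45.8, and cluster 6, led by F3 and Gja1, held 27.3, 37.7, 27.3 and 29.4. Cluster 6 was the lowest of the 3 in each section. Among oligodendrocytes, cluster 17, led by Il33 and Tspan2, held 88.0, 105, 23.1 and 35.0 Marcks transcripts per 10000, against 26.8, 36.1, 14.4 and 15.9 in the larger cluster 4, so cluster 17 was higher in each section.

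Among medium spiny neurons, cluster 8, led by Drd1, Rgs9 and Dlx6os1, held 5.77, 4.74, 2.89 and 4.07 Marcksl1 transcripts per 10000, and cluster 5, led by Penk and Drd2, held 1.92, 0.988, 1.28 and 1.95. The pair of clusters did not overlap. Clusters were made from the same cells, so these values are a description without a test.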
